A study of Homo sapiens with 15 samples.

Results

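ACP3, AZGP1, MSMB, FOLH1, TRPM8 and PSCA are 6 genes used as markers of the prostate, 3 of them coding for secreted proteins and 3 for proteins of the cell surface. Each gene was given every chromatin loop with a 1 kb anchor overlapping a window that ran 2.5 kb to each side of the transcription start in its canonical Gencode transcript in hg19, and each pair of anchors was counted once. By this rule 4 of the 6 genes had loops, 97 of the 505995 different loops in the tables. FOLH1 had 59 loops, ACP3 had 21, AZGP1 had 14 and MSMB had 3, whereas TRPM8 and PSCA had 0. Of 19856 protein-coding promoters, 18.2% had no loop, and those with loops had a median of 20.

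The luminal cells of the prostate secrete the fluid of the gland and depend on androgen, which acts mostly through enhancers away from the genes it controls. H3K27ac marks active enhancers and promoters, and H3K4me3 marks mainly active promoters, so HiChIP of the 2 marks reads the contacts of these elements. ACP3 encodes prostatic acid phosphatase, AZGP1 encodes zinc-alpha-2-glycoprotein and MSMB encodes beta-microseminoprotein, all abundant in seminal fluid. FOLH1 encodes prostate-specific membrane antigen, a folate hydrolase of the plasma membrane that is a target of imaging and therapy. TRPM8 encodes a cold-sensing calcium channel, and PSCA encodes a small protein held to the membrane by a lipid anchor.

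LNCaP, a human prostate cancer cell line derived from a lymph node metastasis, was kept for 3 days in phenol-red-free medium with charcoal-stripped serum, which removes most steroid hormone. Cells then received the ethanol vehicle (0 m) or the androgen dihydrotestosterone (DHT) at 10 nM, with collection after 30 m and after 4 h, 16 h and 72 h, and 10 samples were labelled for H3K27ac and 5 for H3K4me3. The authors deposited 1 contact value per loop, mark and time point, with TMM scaling (a trimmed mean of log ratios) applied within each mark, so that no value has a replicate error and no p-value could be given. Every value (100%) was a whole number of read pairs times a constant of its table, and the intervals below are exact 95% intervals of the recovered read pairs. They cover counting error only and no variation between samples, since each loop has 1 value per mark and time point. Read pairs carried no molecular identifiers, and the authors removed duplicate reads. The tables held between 2475168 and 4308555 read pairs at the time points of H3K27ac and between 2153262 and 10675614 at those of H3K4me3. The luminal markers KLK3, HOXB13, KRT8 and KRT18 all had loops, with mean summed H3K27ac contacts of 98.5 to 299.6, while the basal markers TP63, KRT5 and KRT14 and the blood marker PTPRC had 0 loops. Other markers of blood and neural cells had a few, CD3E 5 loops with a mean summed H3K27ac contact of 7.22, SYP 4 loops with 0.705 and CHGA 1 loop with 0.184.

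The deposited scaling left the time points of each mark with unequal totals, and this sets a shift on which all changes rest. Scaling every library to the same number of read pairs lowers each H3K27ac log2 change by a fixed amount, which was 0.09, 0.07, 0.25 and 0.17 in the order of time. The median change of all promoters with at least 50 read pairs was 0.25, 0.05, 0.12 and 0.15 at these times, and it is given beside the members' values. For H3K4me3 the medians were 0.03, 0.22, 0.12 and -0.14, and equal totals shift each change by -0.02, -0.22, -0.14 and 0.13.

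Among the secreted proteins, ACP3 (chromosome 3, start 132036251, plus strand) had the highest H3K27ac contact. Its summed contact was 130, 102, 116, 185 and 154 in the order of time, from 444, 569, 541, 871 and 585 read pairs. The lowest value came at 30 m and the highest at 16 h. Against 0 m the log2 changes in the same order were -0.35 (-0.53 to -0.17), -0.17 (-0.36 to 0.01), 0.50 (0.34 to 0.67) and 0.24 (0.06 to 0.42). Without its strongest loop the intervals at 16 h and 72 h included 0. At 30 m its difference from the all-promoter median was -0.60 and 10.2% of promoters had a lower change, and at 16 h it stood above the median by 0.39. The H3K4me3 contact of ACP3 was 18.9, 16.4, 14.7, 21.1 and 21.7, from 67, 48, 185, 109 and 79 read pairs, and the interval of each change from 0 m included 0. With equal totals, among other alternatives, that at 4 h did not, at -0.59 (-1.001 to -0.16). ACP3 ranked above 97.3% of promoters with loops by mean H3K27ac contact and above 36.7% by mean H3K4me3 contact.

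The loops of ACP3 pointed upstream. Of its 21 loops, 16 had the other anchor upstream of the start, and these held 87.9% of its H3K27ac contact. The strongest joined the promoter to an intergenic anchor 5 kb away, with H3K27ac contacts of 38.5, 38.3, 36.1, 79.4 and 65.8 in the order of time. This loop differed little up to 4 h, and at 16 h its log2 change was 1.04 (0.75 to 1.34), on 131 read pairs at 0 m and 374 at 16 h. The next reached 10 kb upstream, with 32.3, 22.9, 29.9, 36.5 and 28.2, and the interval of its 16 h change, -0.18 to 0.53, included 0. The bin of its other anchor has 13 similar copies in the genome, whose part in these values was not tested. The third reached 65 kb upstream into an intron of CPNE4, with 7.93, 7.38, 8.55, 14.4 and 11.3. CPNE4, a neighbouring gene coding for a copine, held the other anchor of 9 of the 21 loops and 27.1% of the H3K27ac contact. A further 3 loops of ACP3 reached a promoter of another gene, among them DNAJC13 (100 kb) and ASTE1 and NEK11 (1290 kb), and together they held 1.44% of its H3K27ac contact. Of the 8 protein-coding promoters in the 500 kb on either side, ACP3 included, ACP3 had the highest mean H3K27ac contact, 137 against 29.1 at DNAJC13, the next.

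AZGP1 (chromosome 7, start 99573654, minus strand) had few H3K27ac read pairs. Its H3K27ac contact was 12.3, 15.1, 18.6, 13.6 and 10.5 in the order of time, from 42, 84, 87, 64 and 40 read pairs. The value at 4 h was the highest, at 1.51 times that of 0 m (log2 0.59, 0.04 to 1.16, with equal totals 0.52, -0.025 to 1.09), and the intervals at 30 m, 16 h and 72 h included 0. Its H3K4me3 contact was 27.1, 25.6, 23.8, 39.0 and 21.7, from 96, 75, 300, 202 and 79 read pairs. Here the highest value came at 16 h, with a log2 change of 0.53 (0.17 to 0.89) against an all-promoter median of 0.12. The intervals of the other 3 H3K4me3 changes included 0, except at 4 h with equal totals, where the change was -0.41 (-0.75 to -0.065).

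Of the 14 loops of AZGP1, 10 had a promoter of another gene at the other anchor, and these held 68.5% of its H3K4me3 contact and 45.8% of its H3K27ac contact. They included the promoters of ZNF3 at 105 kb and ZKSCAN1 at 40 kb, which encode zinc-finger proteins, and of TRIM4 at 55 kb. The strongest loop by H3K4me3 held 15.4% of H3K4me3 contact, against a median of 30.7% over promoters with a like number of loops. The strongest loop by both marks together reached 5 kb upstream and held 27.4% of H3K27ac contact, against a like median of 31.5%, with contacts of 4.41, 4.14, 6.41, 1.91 and 2.37 on 15, 23, 30, 9 and 9 read pairs. Its bin has 3 similar copies in the genome and that of the AZGP1 anchor has 1, whose part was not tested. The third reached an intergenic anchor 20 kb downstream, with H3K27ac contacts of 0.882, 3.06, 3.42, 3.82 and 2.37 on 3, 17, 16, 18 and 9 read pairs. At 16 h their log2 changes were -1.21 (-2.58 to 0.08) and 2.12 (0.34 to 4.52). AZGP1 has 39 neighbouring promoters within 500 kb, 30 of them with loops, and ranked 25 of 40 by H3K27ac contact among them, where ZCWPW1 had the highest mean, 256 against 14.0.

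MSMB (chromosome 10, start 51549553, plus strand) had the largest H3K27ac fold of the 4 genes. Its H3K27ac contact was 9.70, 10.8, 10.9, 23.6 and 27.6 in the order of time, from 33, 60, 51, 111 and 105 read pairs. The first 3 time points lay close together and both late ones were above them with no overlap of the counting intervals. The log2 change was 1.28 at 16 h (0.71 to 1.89) and 1.51 at 72 h (0.93 to 2.12), folds of 2.43 and 2.85, and 98.3% and 99.2% of promoters had a lower change. MSMB was the only one of the 4 genes with its highest H3K27ac contact at 72 h. The H3K4me3 contact was 3.38, 3.07, 3.64, 3.29 and 1.65 on 12, 9, 46, 17 and 6 read pairs, and at this depth no change was detectable. A single loop held 93.6% of H3K27ac contact. Its own anchor was centred 2947 bp inside MSMB, and its other anchor lay 5 kb further on, in an intron of MSMB. Its contacts were 9.40, 10.3, 9.61, 21.4 and 26.6 on 32, 57, 45, 101 and 101 read pairs. Its log2 changes of 1.19 (0.60 to 1.81) at 16 h and 1.499 (0.91 to 2.12) at 72 h stand beside 0.60 and 0.44 over all loops of 10 kb or less, which were above the all-promoter medians. The other 2 loops reached 50 kb and 80 kb upstream and together held 1, 3, 6, 10 and 4 read pairs, and the bins of their other anchors have 1 and 12 similar copies in the genome, whose part was not tested. The own anchor of 2 of the 3 loops overlapped the window by 53 bp only, and these 2 include the strongest. NCOA4, which encodes a nuclear receptor coactivator and ferritin receptor and starts 15646 bp downstream, was the only promoter within 500 kb with more H3K27ac contact, a mean of 27.5 against 16.5, and its log2 change was 0.65 at 16 h and 0.39 at 72 h.

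**Figure D1:**
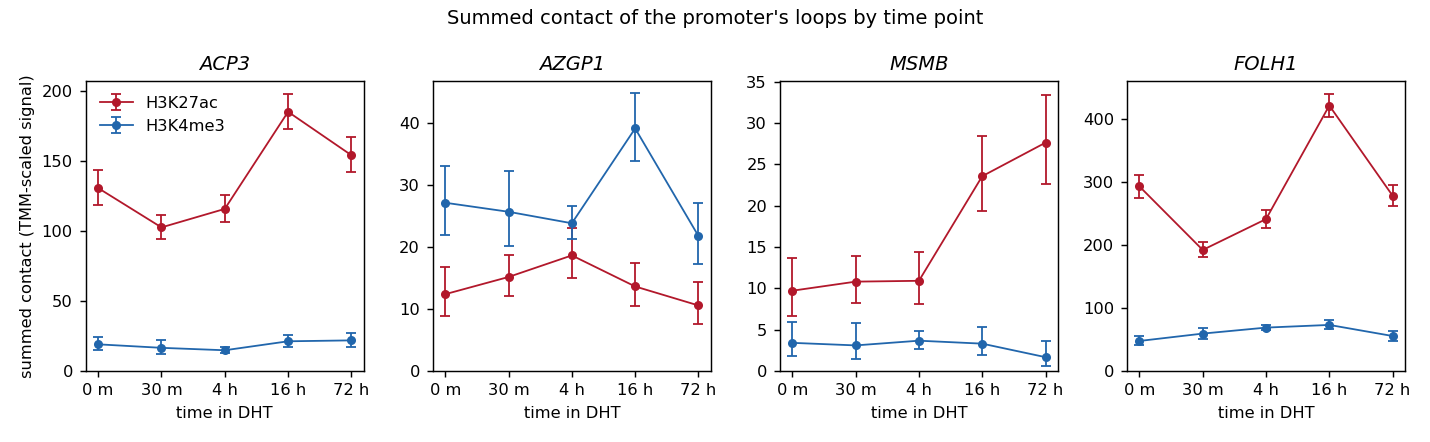
Summed contact (TMM-scaled signal, vertical axis) of the loops of ACP3, AZGP1, MSMB and FOLH1 at each of the 5 DHT time points (horizontal axis), for H3K27ac (red) and H3K4me3 (blue), with exact 95% Poisson intervals as bars and a vertical scale of its own for each gene. H3K27ac contact was lowest at 30 m and highest at 16 h for ACP3 and FOLH1 and highest at 72 h for MSMB, while for AZGP1 the highest value was at 4 h for H3K27ac and at 16 h for H3K4me3. The marks were scaled apart, so levels compare within a mark.

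Of the surface proteins, FOLH1 (chromosome 11, start 49230154, minus strand) was the only one with loops at its promoter, and its H3K27ac contact exceeded that of 99.8% of promoters with loops. The summed contact was 293, 192, 241, 421 and 278 in the order of time, from 997, 1067, 1128, 1985 and 1057 read pairs. As at ACP3, the lowest value came at 30 m and the highest at 16 h. The log2 changes in the same order were -0.61 (-0.74 to -0.48), -0.28 (-0.41 to -0.16), 0.52 (0.41 to 0.64) and -0.07 (-0.20 to 0.05). The last was below 0 with equal totals, at -0.25 (-0.37 to -0.12), and without the strongest loop, at -0.32 (-0.48 to -0.15). At 30 m the difference of FOLH1 from the all-promoter median was -0.86, and 4.60% of promoters had a lower change. H3K4me3 contact followed another course, 47.4, 59.1, 68.6, 72.9 and 55.2, from 168, 173, 866, 377 and 201 read pairs, with every later value above that of 0 m. Its log2 changes were 0.32 (0.00 to 0.63), 0.53 (0.29 to 0.78), 0.62 (0.36 to 0.89) and 0.22 (-0.08 to 0.53). At 30 m and 4 h the changes of the 2 marks thus had opposite signs at this promoter, a difference that could not be tested. With equal totals the H3K4me3 interval at 30 m included 0 (-0.018 to 0.61), and in loops of the H3K4me3 set the intervals at 30 m, 4 h and 16 h did, the 16 h change being 0.26 (-0.11 to 0.63).

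FOLH1 contact was concentrated inside the gene. The 6 loops whose other anchor lay in the FOLH1 body held 80.1% of H3K27ac contact and 70.0% of H3K4me3 contact. The strongest joined the promoter to an intronic anchor 5 kb away and held 43.6% of H3K27ac contact, where promoters with a like number of loops had a median of 23.3% in their strongest. Its H3K27ac contact was 108, 73.1, 94.9, 215 and 130 in the order of time. The next 2 loops ended 10 kb away in an intron, with 63.5, 52.5, 57.0, 93.8 and 56.3, and 20 kb away at an exon, with 24.1, 14.2, 18.2, 28.2 and 18.7. All 3 were lowest at 30 m and highest at 16 h. Another 32 loops reached 620 to 1440 kb downstream, past the end of the gene, and 11 loops in all ended in PTPRJ, a receptor phosphatase gene. These 32 distant loops held 7.67% of H3K27ac contact on 72, 86, 100, 114 and 103 read pairs, with log2 changes of -0.45 (-0.92 to 0.02), 0.01 (-0.44 to 0.47), 0.19 (-0.24 to 0.64) and 0.36 (-0.09 to 0.81). No promoter of another protein-coding gene within 500 kb had a loop.

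Short and longer loops of FOLH1 and ACP3 differed in their H3K27ac changes. At 16 h the log2 change was 0.85 (0.71 to 0.99) in its 2 loops of 10 kb or less and -0.11 (-0.30 to 0.08) in the 57 longer ones. All loops of these lengths in the tables had changes of 0.60 and -0.01, so a gap of this direction was present over all loops too. At 30 m both classes of FOLH1 were lower, at -0.45 (-0.61 to -0.29) and -0.87 (-1.08 to -0.66), where all loops were at 0.27 and -0.02. Of the 8 FOLH1 loops with at least 20 read pairs over 0 m and 30 m, 0 were higher at 30 m. The interval lay below 0 in 7 of them. All share 1 FOLH1 anchor, so they are not separate observations, and no share over all loops is set beside these counts. The longer loops were not alike, since the 17 reaching 15 to 335 kb upstream were lower at each later time while the intervals of the 32 far downstream included 0. Upstream the log2 changes were -1.10 (-1.45 to -0.75), -0.66 (-1.001 to -0.33), -0.74 (-1.08 to -0.39) and -0.91 (-1.29 to -0.54). At ACP3 the order of lengths was the same, 0.71 (0.49 to 0.94) in 2 loops of 10 kb or less and 0.21 (-0.05 to 0.47) in 19 longer ones at 16 h. At 30 m its longer loops were at -0.53 (-0.81 to -0.25) and its short ones at -0.21 (-0.45 to 0.03). Of 9 ACP3 loops with at least 20 read pairs, on 1 shared anchor, 0 were higher and 2 had an interval below 0. AZGP1 and MSMB had the reverse order at 16 h, on few read pairs, with -1.21 (-2.58 to 0.08) in 1 short loop and 0.56 (-0.13 to 1.28) in 13 longer ones at AZGP1, and 1.19 (0.60 to 1.81) in 1 and 2.85 (0.04 to 8.29) in 2 at MSMB.

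**Figure D2:**
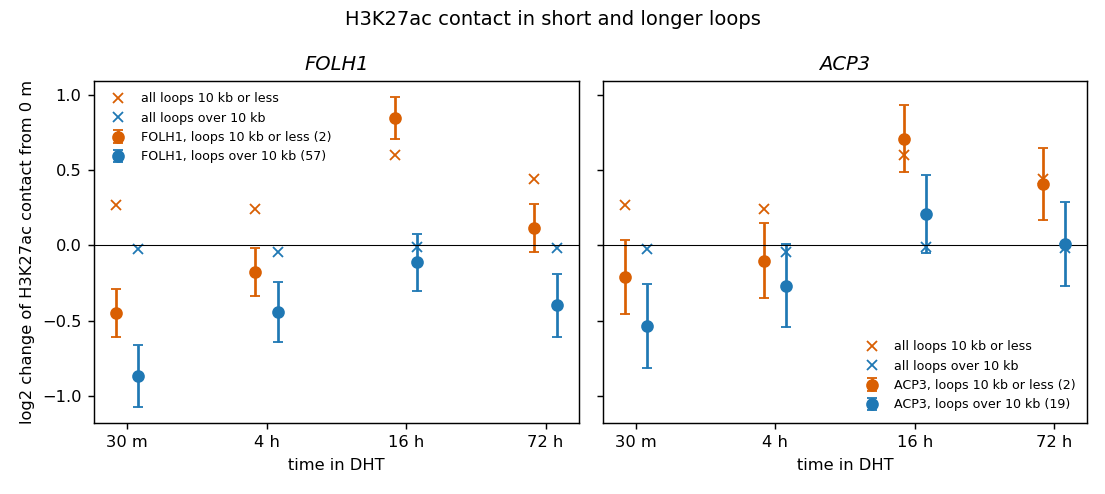
Log2 change of H3K27ac contact from 0 m (vertical axis) at the 4 later time points for loops of 10 kb or less (orange) and over 10 kb (blue) of FOLH1 and ACP3, with 95% counting intervals as bars, the number of loops in the key and crosses for all loops of that length. At 16 h the short loops of FOLH1 were at 0.85 and the longer ones at -0.11, and at 30 m both were below the crosses.

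All 59 loops share 1 FOLH1 anchor, which lies inside the gene and overlaps the promoter window by 347 bp, so a narrower rule finds no FOLH1 loop. The 5 kb bins of this anchor and of the 3 strongest other anchors also have a near-identical copy on the same chromosome (chr11:89370628-89395110 of GRCh37), with 95.9% to 97.1% identity in the aligned parts. The study's contact maps hold uniquely mapped read pairs only. The copy carried 23 loops with 1022 H3K27ac read pairs over the 5 time points, and its part in the FOLH1 values was not tested.

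**Figure D3:**
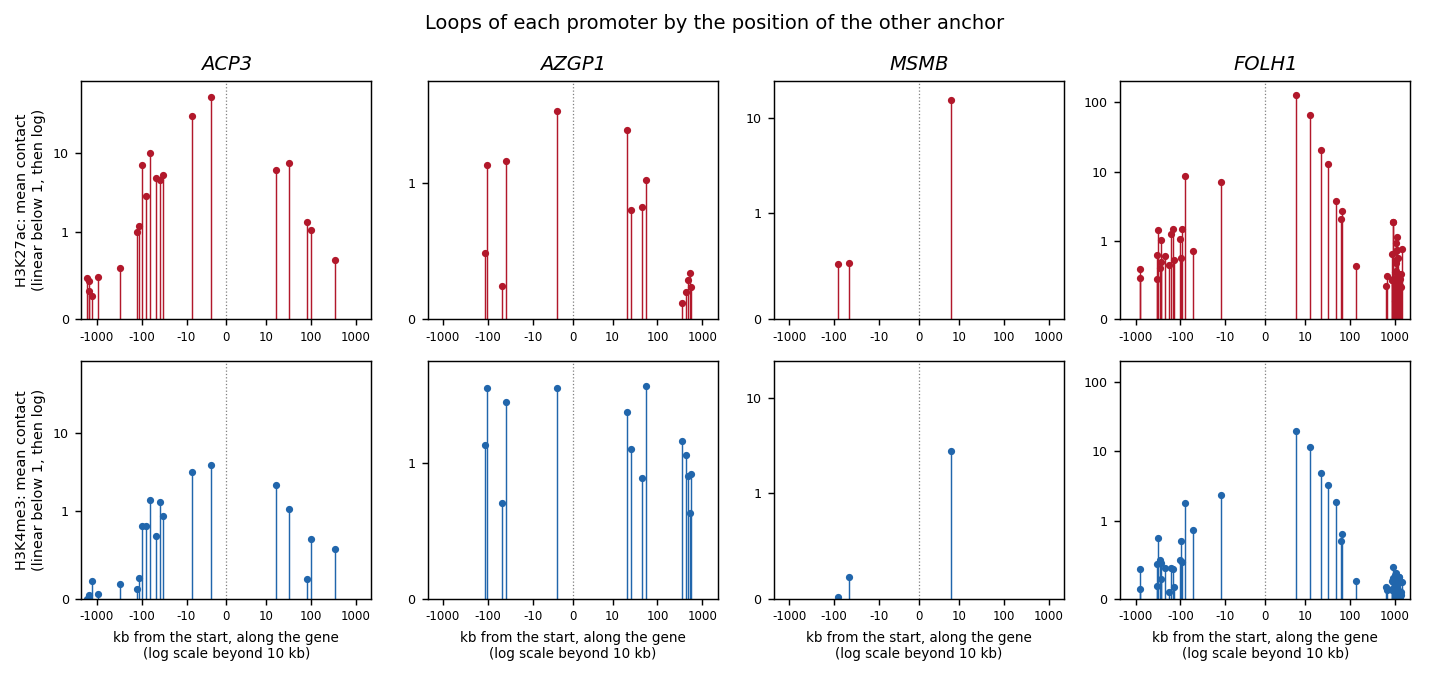
Mean contact over the 5 time points (vertical axis, linear below 1 and logarithmic above) of each loop of ACP3, AZGP1, MSMB and FOLH1 against the position of its other anchor in kb from the gene's start, negative upstream (horizontal axis, logarithmic beyond 10 kb), with H3K27ac above in red and H3K4me3 below in blue. The strongest loop of ACP3 reaches upstream, those of FOLH1 and MSMB into their own gene body, and the 14 loops of AZGP1 lie on both sides.

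The balance of the 2 marks was high at ACP3, FOLH1 and MSMB and near the median at AZGP1. With both marks scaled to the same total, the log2 ratio of H3K27ac to H3K4me3 read pairs was 2.95 at ACP3 (2.81 to 3.09), 2.13 at FOLH1 (2.05 to 2.20), 2.32 at MSMB (1.99 to 2.67) and -0.92 at AZGP1 (-1.12 to -0.73). Over 13314 promoters with at least 50 read pairs in each mark the median was -0.90 and the quartiles were -1.37 and -0.35. ACP3 exceeded 99.8% of these promoters, MSMB 99.5%, FOLH1 99.3% and AZGP1 48.7%. In loops of 20 kb or more the ratios of ACP3, FOLH1 and MSMB were 2.64, 1.83 and 2.29, above 99.8%, 99.4% and 99.7% of promoters, that of MSMB on 24 and 7 read pairs only. At 0 m alone they were 2.78, 2.62 and 1.51. All 3 loops of MSMB were called in H3K27ac only, as were 11 of 21 at ACP3, 32 of 59 at FOLH1 and 2 of 14 at AZGP1, and the part of loop calling in the ratios was not tested. In loops called in both marks the ratio was 2.54 at ACP3, 1.77 at FOLH1 and -0.36 at AZGP1.

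In the 1001 bp centred on the start, 5 of the 6 genes were poor in CpG. Observed over expected ratios were 0.14 at AZGP1, 0.21 at TRPM8, 0.24 at MSMB, 0.26 at PSCA and 0.28 at ACP3. The median over all promoters was 0.73. Of 19856 promoters, 5.02%, 11.3%, 14.7%, 16.0% and 17.6% had a lower ratio than these genes, in the same order. FOLH1 was the exception at 0.80, with 57 CpG against a median of 66. Promoters were split by CpG ratio into 4 groups of equal size. In the lowest group, 3329 promoters with ratios from 0.018 to 0.673 and so reaching well above these genes, the balance of marks at ACP3, MSMB and AZGP1 exceeded 99.4%, 98.3% and 37.8% of promoters. FOLH1 exceeded 99.8% of the 3328 promoters with ratios from 0.779 to 0.865. The 150 bases just upstream of 2 of the CpG-poor starts are shown for this reason, from GRCh37, 5′ to 3′ on the strand of the gene, with each CpG in capitals. ACP3 (chr3:132036101-132036250, plus strand) and AZGP1 (chr7:99573655-99573804, minus strand) have 1 CpG each.
ACP3: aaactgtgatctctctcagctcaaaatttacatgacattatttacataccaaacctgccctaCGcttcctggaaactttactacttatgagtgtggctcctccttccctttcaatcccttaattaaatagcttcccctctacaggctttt
AZGP1: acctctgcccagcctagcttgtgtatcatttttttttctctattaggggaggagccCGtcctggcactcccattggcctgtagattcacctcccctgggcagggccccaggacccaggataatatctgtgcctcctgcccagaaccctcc

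The androgen response element is an inverted repeat, and its letters were searched in the 5 kb bins of the members' own anchors and of their 3 strongest loops. The full form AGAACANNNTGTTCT was found in none of these 17 bins, and 0.104% of 210059 different anchor bins hold it. The looser form GNACANNNTGTNC, which contains every match of the full form, was found in 1 of the 17, at the third loop of FOLH1, against 6.51% of all bins. This match lies in an intron 21029 bp inside FOLH1 (chr11:49209099-49209151, minus strand, looser form in capitals). It is in the 5 kb bin of the other anchor, outside the 1 kb anchor itself. The bins of the first and second FOLH1 loops held no match.
FOLH1 intron: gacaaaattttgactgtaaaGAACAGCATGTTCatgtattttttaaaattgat
Among all 59 other anchors of FOLH1, 4 held the looser form, and 0 of 21 did for ACP3, 0 of 14 for AZGP1 and 0 of 3 for MSMB. The forkhead motif TGTTTAC, read by FOXA1, was found at 37 of 59 other anchors of FOLH1, 12 of 21 of ACP3, 4 of 14 of AZGP1 and 2 of 3 of MSMB, against 53.2% of all bins. Both strands were searched, and a match is only a run of letters.

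A count of the genes past a fold of 1.5 puts the members beside all promoters. For H3K27ac, 1 of 4 members was lower at 30 m (FOLH1), against 4.98% of 13552 promoters, and 0 were higher, against 18.7%. At 4 h 1 was higher (AZGP1, at 0.52 and short of the fold with equal totals), against 5.92%, and 0 were lower, against 2.18%. At 16 h 1 was higher (MSMB), against 17.7%, and 0 were lower, against 11.3%. At 72 h 1 was higher (MSMB), against 17.5%, and 0 were lower, against 8.59%. With equal totals the shares of higher and lower promoters became 12.6% and 6.67% at 30 m and 4.41% and 2.93% at 4 h. At 16 h they became 7.84% and 21.1%, and at 72 h 9.43% and 13.8%.

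For H3K4me3, 0 of 4 members were past the fold at 30 m, where 3.29% of 14179 promoters were higher and 4.39% lower. At 4 h again 0 were, against 15.3% higher and 3.46% lower. At 16 h 1 was higher (FOLH1, at 0.49 and short of the fold with equal totals), against 6.43%, and 0 were lower, against 1.72%. At 72 h 0 were higher, against 4.65%, and 1 was lower (MSMB), against 7.36%, although its interval, -2.74 to 0.49, included 0. With equal totals the shares became 6.58% higher and 7.86% lower at 4 h, 3.85% and 3.06% at 16 h, and 6.62% and 3.51% at 72 h. The median H3K27ac log2 change of the 4 members in the order of time was -0.097, -0.0032, 0.51 and 0.082, below the all-promoter medians of 0.25, 0.05 and 0.15 at 30 m, 4 h and 72 h and above that of 0.12 at 16 h. For H3K4me3 it was -0.11, -0.041, 0.34 and -0.059, below the all-promoter medians of 0.03 and 0.22 at the first 2 times and above those of 0.12 and -0.14 at the last 2.

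**Figure D4:**
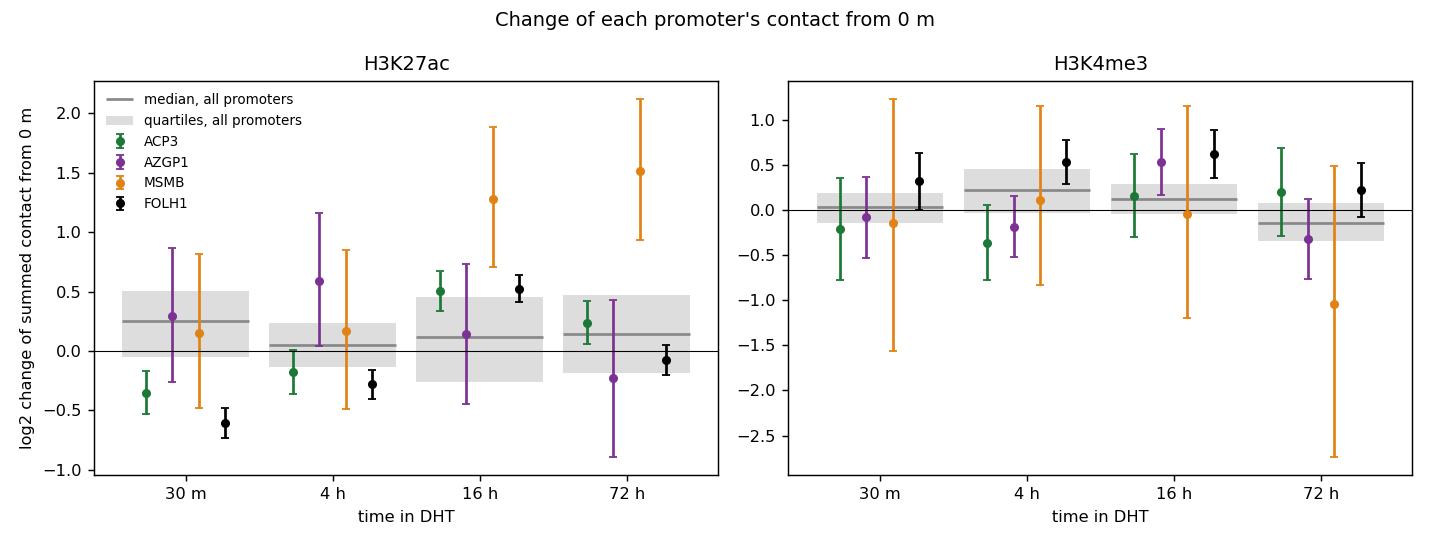
Log2 change of summed contact from 0 m (vertical axis) at the 4 later time points of DHT for ACP3, AZGP1, MSMB and FOLH1, for H3K27ac (left) and H3K4me3 (right), with 95% counting intervals as bars. Grey boxes and lines give the quartiles and the median of all promoters with at least 50 read pairs. For H3K27ac, MSMB lies far above the box at 16 h and 72 h. FOLH1 and ACP3 lie below it at 30 m and 4 h and above it at 16 h. AZGP1 lies above it at 4 h and below it at 72 h. For H3K4me3, FOLH1 lies above the box at every time, and the other genes lie outside it at some times.

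TRPM8 (chromosome 2, start 234826018, plus strand) had no anchor in its promoter window, the nearest lying 5983 bp away, but 39 loops had an anchor on its gene body. They held H3K27ac contacts of 30.6, 31.8, 47.9, 43.1 and 33.7 in the order of time, on 104, 177, 224, 203 and 128 read pairs from libraries of unequal depth. The highest value came at 4 h, with a log2 change of 0.65 (0.31 to 0.997), followed by 0.50 (0.15 to 0.85) at 16 h, and the intervals at 30 m and 72 h included 0. With equal totals that at 16 h did too, at 0.25 (-0.099 to 0.60), and that at 4 h did not, at 0.58 (0.24 to 0.93). The strongest of these loops joined 2 anchors 5 kb apart, from 16482 bp inside the gene, with contacts of 5.29, 7.38, 9.40, 9.98 and 8.42 on 18, 41, 44, 47 and 32 read pairs. H3K4me3 contact on the gene body was 13.8, 11.3, 15.8, 17.2 and 11.5, and every interval of change included 0. Counting the starts of all 14 annotated transcripts of TRPM8 gave 27 loops, with an H3K27ac change of 0.47 at 16 h (0.10 to 0.86), or 0.23 (-0.15 to 0.61) with equal totals, some of them shared with HJURP and USP40. Within 500 kb the highest H3K27ac contact was at USP40, a deubiquitinase gene, with a mean of 43.7.

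PSCA (chromosome 8, plus strand) had no anchor in its window or on its gene body, and the nearest anchor lay 3913 bp from its start. Once the 5 kb bin around an anchor was used in place of the 1 kb anchor, a rule chosen after seeing the data, PSCA gained 32 loops. Their H3K27ac contact was 78.8, 134, 113, 132 and 112 in the order of time, and each later value was above that of 0 m. At 16 h the log2 change was 0.74 (0.53 to 0.95). Their H3K4me3 contact was 53.0, 43.7, 52.5, 44.1 and 32.2, lowest at 72 h, with a change of -0.27 (-0.55 to 0.02) at 16 h. With equal totals the 16 h changes were 0.49 (0.28 to 0.71) and -0.40 (-0.69 to -0.12). JRK shared 1 of the 32 loops, and loops were also shared with LY6E and SLURP2. The start of JRK lies 10528 bp from that of PSCA, and JRK had the highest H3K27ac contact within 500 kb, a mean of 66.3. The starts of all 4 annotated PSCA transcripts gave 13 loops, and all 13 were loops of JRK. The count of 0 also held in a window of 1 kb and with an overlap of 500 bp for both PSCA and TRPM8, and with 5 kb bins for TRPM8.

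Other genes of prostate secretion and of the prostate cell surface are given for comparison. Of 15 such genes 13 had loops, TGM4 and NPY being without. For H3K27ac at 16 h 3 of 13 were past the fold upward, among them KLK2 at 0.88 and ANO7 at 0.64, and 2 were past it downward, SPON2 at -0.65 and STEAP1 at -0.59, where 17.7% and 11.3% of all promoters were. At 30 m STEAP1 and STEAP2, surface genes of the STEAP metalloreductase family, were at -0.71 and -0.60, close to the -0.61 of FOLH1. They were the 2 of 13 past the fold downward, against 4.98% of all promoters. At 72 h 4 of 13 were lower and 0 higher, against 8.59% and 17.5% of all promoters, with a median log2 change of -0.35. For H3K4me3 at 16 h 5 of 12 were past the fold upward and 0 downward, against 6.43% and 1.72% of all promoters, with a median log2 change of 0.33. TMPRSS2 at 1.61, KLK3 at 1.58, KLK2 at 1.45 and SLC45A3 at 1.15 all stood above the 0.62 of FOLH1.

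The promoters most like each member in their course over the 10 tables, by Pearson's r after centring each mark on its mean, were sought among 7614 promoters with at least 500 read pairs in each mark. They were PPP3CA (0.97) and ZC3H12A (0.92) for ACP3, CD2AP (0.97) and COPS5 (0.95) for FOLH1, CNPY3 (0.95) and ANAPC13 (0.93) for AZGP1, and DNAJC10 (0.96), with ENSG00000288626 on chromosome 1 (0.97), for MSMB. The points share their libraries, and for MSMB 49 promoters had r above 0.9.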

How the data were processed

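LNCaP cells were profiled by HiChIP of both marks at 5 time points. The authors trimmed reads with Trim Galore 0.5.0, aligned them to hg19 and filtered pairs with HiC-Pro 3.1.0, used FitHiChIP on 5 kb bins of the merged time points to call loops, and took contact from Cooler maps. The deposited values are this contact signal, scaled by TMM among the time points of a mark. Whether a value of H3K27ac holds both of its replicates is not given in the sources used here. Read pairs were recovered by dividing by the smallest value of a table, and a quotient within 1e-06 of a whole number counted as whole.

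Each different anchor pair was counted once. Promoters came from Gencode release 44 lifted to GRCh37, where 0 loops ran past a chromosome end. Contacts were summed over the loops of a promoter and compared with 0 m as log2 ratios, with exact Poisson and conditional binomial (Clopper-Pearson) intervals and no test. Promoters with at least 50 read pairs over the 5 time points of a mark served as background, and a fold of 1.5 was the call. Named beside the 6 members were their 3 strongest loops, promoters at the other anchors, the strongest neighbour within 500 kb and the 2 most alike promoters; genes of the prostate list were named after their values were seen. Copies of anchor bins were sought with minimap2 (hits of at least 1000 bp and 90% identity). The members, lists and rules were chosen with earlier results of these data known. Some genes of the marker lists, a promoter at an ACP3 loop and 1 upstream sequence are not reported here. The scripts were tested on simulated data. Alternatives varied scaling, loop length, window, starts, loop set and the strongest loop. Scripts ran in Python 3.11.15 with pandas 2.3.3, scipy 1.17.1, numpy 2.4.6 and matplotlib 3.10.9.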

Additional observations from a re-analysis of the deposited data

Results flagged for a closer look

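At the promoter of FOLH1 the changes of the 2 marks from 0 m had opposite signs, with counting intervals on either side of 0 under the reported settings. At 30 m the log2 change was -0.61 for H3K27ac and 0.32 for H3K4me3, and at 4 h it was -0.28 and 0.53. The difference between the marks was not tested, since each has 1 value per time point. The H3K4me3 interval at 30 m reached down to 0.00, and it included 0 with equal totals (-0.018 to 0.61), in loops of 20 kb or more, in loops of the H3K4me3 set and without the strongest loop. At 4 h the H3K4me3 change in loops of the H3K4me3 set was 0.21 (-0.11 to 0.55). The signs themselves stayed opposite under these alternatives.

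Loops on the body of TRPM8, outside the promoter window that gave the gene 0 loops, held 836 H3K27ac read pairs over the 5 time points. This is data that the comparison of promoters did not use.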

How the results depend on the processing

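No paired analysis was possible because the deposited tables carry no replicate number and give a loop a single H3K27ac value at each time. The H3K27ac change of FOLH1 from 0 m to 16 h, 0.52 as reported, was -0.050 (-0.25 to 0.15) in loops of 20 kb or more, 0.16 without its strongest loop and 0.28 with equal totals. That of ACP3, 0.50 as reported, was 0.24 (-0.034 to 0.51) in loops of 20 kb or more, 0.20 (-0.0088 to 0.41) without its strongest loop and 0.26 with equal totals. That of MSMB was 2.85 both in loops of 20 kb or more and without its strongest loop, on 1 and 10 read pairs. The H3K4me3 change of FOLH1 at 16 h was 0.26 (-0.11 to 0.63) in loops of the H3K4me3 set and 0.35 without its strongest loop. The H3K27ac change of FOLH1 at 72 h, -0.07 as reported, was -0.34 (-0.56 to -0.12) in loops of 20 kb or more, and its H3K4me3 change at 72 h was 0.35 (0.046 to 0.65) with equal totals. The H3K27ac change of ACP3 at 72 h, 0.24 as reported, was -0.061 without its strongest loop, 0.021 in loops of 20 kb or more and 0.067 with equal totals, each with an interval that included 0. Its H3K27ac change at 4 h was -0.24 (-0.43 to -0.059) with equal totals, and its H3K4me3 change at 4 h was -0.61 (-1.16 to -0.042) in loops of 20 kb or more and -0.57 (-1.02 to -0.095) without its strongest loop. With equal totals 0 members were past the fold upward for H3K27ac at 4 h (AZGP1 at 0.52) and for H3K4me3 at 16 h (FOLH1 at 0.49), and 1 was past it downward for H3K4me3 at 4 h (ACP3 at -0.59). The number of loops was 0 for FOLH1 both in a window of 1 kb and with an overlap of 500 bp, 0 and 1 for MSMB, and, with 5 kb bins in place of anchors, 22 for AZGP1 and 32 for PSCA. Some values whose intervals included 0 also changed sign, and only those at 16 h are given. The H3K27ac change of AZGP1, 0.14 as reported, was -0.11 with equal totals and -0.17 in loops of the H3K27ac set. In loops of 20 kb or more it was 0.56. The H3K4me3 change of ACP3, 0.16 as reported, was -0.034 in loops of 20 kb or more and -0.0028 without its strongest loop. FOLH1 and MSMB gave no change in a window of 1 kb, nor MSMB for H3K4me3 in loops of that set, since no loop was left. The bins, the equal totals outside the promoter windows and the alternatives for the balance of the marks were added after seeing the data. The cause of these differences was not tested, beyond the loops that each rule leaves out. Depth limits MSMB and AZGP1 most, with 33 and 42 H3K27ac read pairs at 0 m.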
